A study of Mus musculus with 6 samples.

Results

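Collagen is modified by enzymes at several steps before and after its secretion. Inside the endoplasmic reticulum, prolyl 4-hydroxylases hydroxylate proline residues, which stabilizes the triple helix, and lysyl hydroxylases hydroxylate lysine residues. Outside the cell, lysyl oxidases convert lysine and hydroxylysine residues to reactive aldehydes, from which the covalent crosslinks of collagen and elastin form. In adipose tissue these crosslinks set the stiffness of the matrix around adipocytes, and fibroblasts and progenitors make much of the collagen.

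The 10 genes described here encode the lysyl hydroxylases Plod1, Plod2 and Plod3, the prolyl 4-hydroxylase alpha subunits P4ha1, P4ha2 and P4ha3, and the lysyl oxidases Lox, Loxl1, Loxl2 and Loxl3. All 10 were found by symbol among the 16538 genes of the deposited table. They were chosen by enzyme function, but with earlier results of these samples known, and Plod2 was picked from the AKO against control difference itself. The differences between the groups are therefore given for these genes as a description. Where the number of enzymes past a threshold is given beside that of all genes, it is no test of the enzymes. RNA-Seq was performed on whole iWAT, the inguinal subcutaneous white fat, from control and adipocyte-specific Nrg4-knockout (AKO) mice after cold acclimation at 8°C. The controls are wild type in the sample labels and fl/fl in the paper. AKO mice carry the floxed Nrg4 alleles and a Cre driven by the adiponectin promoter, which acts in adipocytes of all depots and leaves Nrg4 of other cells in place. Both groups were held in the cold for 10 days by the sample labels. The paper gives a slightly longer time. Each group had 3 samples, each of RNA pooled from 2 mice, and age and sex are not given in the sources used here. Values are normalized counts, which are reads per gene divided by a factor for the depth of the sample.

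Nrg4, the targeted gene, had 3108 ± 18.3 normalized counts in control samples and 2632 ± 57.3 in AKO samples (SD, n = 3 each), with no overlap between the groups. Its adjusted p was 0.298 in limma and 0.0682 in DESeq2. The AKO mean was 84.7% of the control mean, so that the count over the whole gene does not show a loss of the transcript, and the groups rest on the sample labels. The 6 samples held 17570335 to 18373707 reads. Defining adipocyte genes were abundant in each sample, with a summed level of 5 markers between 264227 and 320267. The summed level of 24 skeletal muscle genes ran from 1010 to 35397 in control and from 26407 to 149955 in AKO samples, and that of 5 mammary epithelial genes ran from 8.60 (with Epcam, Krt8, Krt14 and Krt5 at 0) to 1130 across all samples. The sum of 6 progenitor markers was 10201 to 13700 in control and 12857 to 17288 in AKO, and 5 of the 6 had a positive log2 fold change. For 3 of them, Pdgfra, Dpp4 and Cd34, each AKO sample was higher than each control sample, as for 6.14% of all genes tested. DESeq2 called Dpp4 (adjusted p of 0.00844), as it called 0.241% of genes higher, and limma called none of the 6. All 6 macrophage markers had a positive log2 fold change too (median 0.37, with overlap between the groups for each), and their sum ran from 7972 to 11262 in control and from 9789 to 13700 in AKO. The 4 beige adipocyte genes Ucp1, Cidea, Dio2 and Elovl3 were lower in each AKO sample than in each control sample, with sums of 23644 to 34702 in control and 8790 to 12021 in AKO, and DESeq2 called all 4 and limma 1. The part of these cell types in the values of the collagen enzymes was not tested. In a whole tissue, fewer cells of a type and less RNA per cell cannot be told apart.

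Plod2, which encodes the lysyl hydroxylase that acts on the telopeptides of fibrillar collagen, was lower in AKO iWAT. Its normalized counts were 436, 418 and 447 in control iWAT, against 293, 260 and 299 in AKO iWAT. The lowest control sample was above the highest AKO sample, and the 3 samples of each group lay close together. Its group means of 434 ± 14.6 and 284 ± 21.1 (SD, n = 3 each) differ by a fall of 34.6%. The log2 fold change from limma was -0.61 (standard error 0.09). With each sample left out in turn it stayed between -0.65 and -0.55. The control SD is smaller than the 21.2 that counting of reads alone would give, so that it understates the error.

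Plod2 lies on the plus strand of chromosome 9 of GRCm38 from 92542223 to 92608428, and 6.42% of its exonic bases are shared with Gm38391 on the opposite strand. The deposited count sums all forms of the transcript, including those with and without an alternative coding exon of 63 bases at chr9:92601985-92602047. The form that holds this exon is the one known for telopeptide hydroxylation, and the counts do not say which form was lower. The sequences of both forms around the exon are shown because they mark what a gene-level count merges. Capitals mark the alternative exon, and lower case marks 24 bases of the neighboring exon on each side.
Plod2 with the exon: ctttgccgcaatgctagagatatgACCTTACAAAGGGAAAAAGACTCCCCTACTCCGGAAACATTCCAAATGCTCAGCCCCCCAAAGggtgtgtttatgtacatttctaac
Plod2 without the exon: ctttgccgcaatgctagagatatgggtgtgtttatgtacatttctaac
Both were read from GENCODE M21 transcripts in the 5′ to 3′ direction.

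The other lysyl hydroxylases overlapped between the groups. Plod1, which hydroxylates lysines of the collagen helix, had 2122, 2338 and 2281 normalized counts in control and 2099, 1878 and 2219 in AKO samples. The highest AKO sample was above the lowest control sample, and the log2 fold change was -0.12 (standard error 0.08), or -0.06 without AKO replicate 2. Plod3, whose product also attaches sugars to hydroxylysine, had 1308, 1440 and 1406 in control and 1385, 1321 and 1393 in AKO samples. All 3 AKO values lay within the control range, and the log2 fold change was -0.02 (standard error 0.06), turning to 0.01 without control replicate 2 or without AKO replicate 2. Of Plod3's exonic bases, 11.9% are shared with Znhit1 or Mir702. The share of Plod2 in the summed level of the 3 lysyl hydroxylases, per length of exon, was 11.8%, 10.5% and 11.3% in control and 8.09%, 7.79% and 8.01% in AKO samples. The mean share was 11.2% ± 0.69 against 7.97% ± 0.16 (SD, n = 3 each). Plod1 and Plod3 made up the rest, with 46.2% for Plod1 in both groups.

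The prolyl 4-hydroxylase alpha subunits did not separate the groups. P4ha1, the main catalytic subunit in most tissues, had 467, 526 and 601 normalized counts in control and 641, 525 and 594 in AKO samples. The ranges overlapped, and the log2 fold change was 0.15 (standard error 0.11). It was 0.06 without control replicate 1, 0.08 without AKO replicate 1 and 0.24 without control replicate 3. P4ha2, a second catalytic subunit, had 281, 283 and 295 in control and 292, 331 and 318 in AKO samples. Only AKO replicate 1 fell within the control range, and the log2 fold change was 0.13 (standard error 0.08). P4ha3, a subunit of low abundance, had 3.01, 7.53 and 3.05 in control and 5.76, 4.88 and 8.68 in AKO samples. These are a few reads per sample, and P4ha3 did not pass the filter of a mean of 10 normalized counts, so that it was not among the genes tested with limma. Without the filter its log2 fold change was 0.49. The control SD of P4ha2 (7.50) and the AKO SD of Loxl3 (10.9) and P4ha3 (1.99) are also below their counting errors of 17.2, 13.5 and 2.50.

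Of the 4 lysyl oxidases, Loxl2, Loxl3 and Lox had a higher mean in AKO than in control iWAT, and all 4 overlapped between the groups. Loxl2, which acts on fibrillar and basement membrane collagen, had 715, 965 and 952 normalized counts in control and 1307, 915 and 1128 in AKO samples. AKO replicate 2 lay below 2 control samples, and control replicate 1 was the lowest of all. The log2 fold change was 0.35 (standard error 0.16). It was 0.21 without control replicate 1 and 0.23 without AKO replicate 1. Loxl3 had 141, 185 and 172 in control and 189, 178 and 200 in AKO samples, a log2 fold change of 0.19 (standard error 0.13), and again control replicate 1 was the lowest. Without control replicate 1 the log2 fold change of Loxl3 was 0.08. Loxl3 shares 11.6% of its exonic bases with Htra2 on the opposite strand.

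Lox, the founding member of the family, had 1092, 925 and 1128 normalized counts in control and 1242, 1058 and 1013 in AKO samples. The ranges overlapped. Its log2 fold change of 0.07 (standard error 0.11) became -0.01 without control replicate 2 or without AKO replicate 1. Loxl1, the oxidase that crosslinks elastin, had 4569, 4562 and 4974 in control and 4869, 3114 and 5050 in AKO samples. AKO replicate 2 stood apart from the other 5 samples, which lay within 4562 to 5050. Its log2 fold change of -0.15 (standard error 0.17) turned to 0.08 without AKO replicate 2. Loxl1 also lies on chromosome 9, from 58287738 to 58313186 on the minus strand, 2.96 Mb from Nrg4, while Plod2 is 37.2 Mb from Nrg4.

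**Figure D1:**
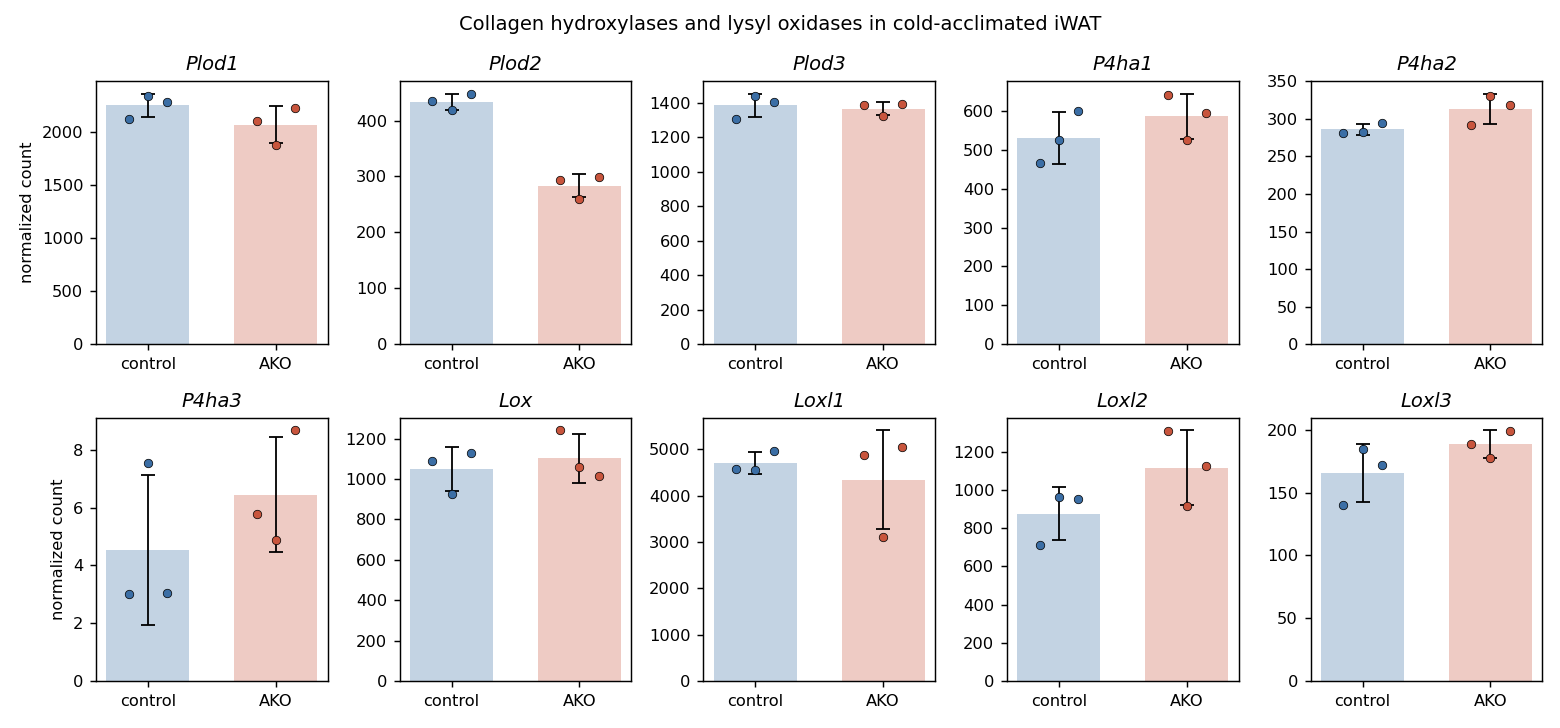
Normalized counts (vertical axes, each from 0) of the 10 enzymes in 3 control and 3 AKO samples, with a point for each sample, a bar for the mean and an error bar for the SD. The Plod2 points of the groups do not overlap (418 to 447 against 260 to 299), while those of the other 9 genes do, and AKO replicate 2 is the low point of Loxl1.

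The number of enzymes past a threshold can be set against all genes tested. Of the 9 enzymes with a mean of at least 10, none had a Benjamini-Hochberg adjusted p under 0.05 with limma, and 0.0144% of the 13855 genes tested did. Before adjustment 1 of the 9, Plod2, had a limma p under 0.05, as did 9.1% of all genes tested. Plod2 was also the 1 of 9 whose groups did not overlap with AKO lower, which held for 8.31% of genes tested. DESeq2, which the authors used, was run on reads recovered from the normalized counts. It called Plod2 lower and no other of the 10, where 0.757% of the genes it adjusted were called lower and 0.241% higher. The edgeR quasi-likelihood test and limma-voom called none of the 9, and over all genes tested they called 2 and 0. Because Plod2 was picked on this same contrast, nothing is read from these counts. The log2 fold change of Plod2 was 0.71 below the median of the other 8 tested enzymes, which was 0.10 with a range of -0.15 to 0.35. The median over all genes tested was 0.01.

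Levels of different genes were compared per kilobase of exon, on the linear scale. Loxl1 was the highest in control iWAT, with 1426 ± 71.6 normalized counts per kb (SD, n = 3). Plod1 (332 ± 16.5) and Plod3 (306 ± 15.2) came next, and their control ranges overlapped. They were followed by Lox (219 ± 22.7), Loxl2 (162 ± 26) and P4ha1 (129 ± 16.3), of which Loxl2 and P4ha1 overlapped. By the control mean Plod2 ranked 7 of 10, with 80.4 ± 2.7 in control and 52.6 ± 3.91 in AKO samples. P4ha2 (45.9 ± 1.20) and Loxl3 (36.0 ± 4.96) were below it in control samples, and P4ha3 was the lowest at 1.44 ± 0.828. In AKO samples Plod2 (48.2 to 55.4) and P4ha2 (46.8 to 53.0) overlapped. Taking the longest annotated transcript as the length gave the same order of control means, with Plod2 at 118 per kb, but Plod1 (518 to 571) and Plod3 (399 to 439) then did not overlap, while Plod2 (114 to 122) and P4ha1 (115 to 149) did. With that length P4ha2 was above Plod2 in AKO samples, at 95.4 to 108 per kb against 70.9 to 81.6.

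**Figure D2:**
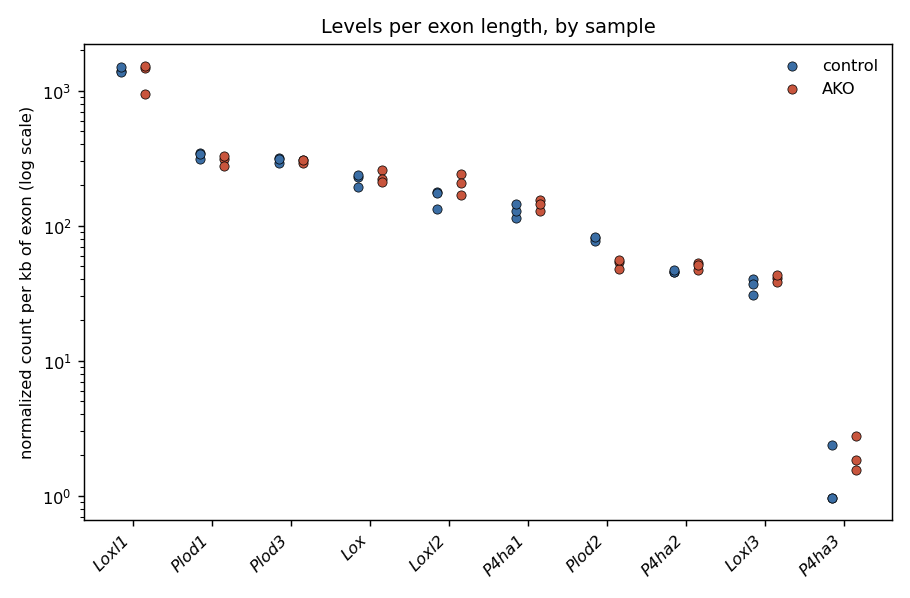
Normalized count per kb of exon (log axis) for each of the 10 enzymes, ordered by the control mean, with a point for each of 3 control and 3 AKO samples. Loxl1 is at 1426 per kb on average in control samples and P4ha3 at 1.44, and Plod2 ranks 7 of 10.

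The enzymes also differed in how they varied among samples of a group. Plod2 spanned 1.07-fold from the lowest to the highest control sample and 1.15-fold among AKO samples. Loxl2 spanned 1.35-fold and 1.43-fold, and Loxl1 spanned 1.09-fold in control but 1.62-fold in AKO samples. Control replicate 1 was the lowest of the 6 samples for 5 of the 9 tested enzymes (Plod3, P4ha1, P4ha2, Loxl2 and Loxl3), and for 20.5% of all genes tested. That sample also had the smallest sum of muscle genes (1010) and of progenitor markers (10201), and the part of either in these values was not tested.

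The rest of the pathway was followed in 51 genes for the cofactors of these enzymes, collagen folding, procollagen processing, fibril partners and collagen chains. Of these, 50 were tested and Tll2 was not analysed here. limma, edgeR and limma-voom called none of the 50, and DESeq2 called 1, Pcolce2, as higher. Over all genes limma and edgeR called 2 each and limma-voom 0, and DESeq2 called 0.241% higher and 0.757% lower. Before adjustment, 3 of the 50 had a higher level at a limma p under 0.05 (Pcolce2, Lum and Efemp2) and none a lower level, beside 4.41% higher and 4.69% lower over all genes tested. The groups did not overlap for 6 genes higher in AKO (12% of 50, beside 6.14% of all genes tested) and for 1 gene, P3h2, that was lower (2% of 50, beside 8.31%). The log2 fold change was below 0 for 12 of the 50 (24%), against 48.1% of all genes tested, and the median was 0.10. Control replicate 1 was the lowest sample for 25 of the 50, and without it 19 of the 50 (38%) were below 0 and the median was 0.05. Without control replicate 3, or without AKO replicate 2, 10 of the 50 (20%) were below 0 and the median was 0.15.

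Pcolce2, an enhancer of procollagen C-proteinase, had 606, 787 and 882 normalized counts in control and 1190, 931 and 1259 in AKO samples. The lowest AKO sample exceeded the highest control sample, at a log2 fold change of 0.58 (standard error 0.16). The adjusted p was 0.386 by limma but 0.0233 by DESeq2. Its relative Pcolce had a log2 fold change of 0.28 (standard error 0.18), Furin, a proprotein convertase, -0.10 (standard error 0.06) and Adamts2, the procollagen N-proteinase, 0.26 (standard error 0.14). None of these 3 had an adjusted p under 0.05 with limma or DESeq2.

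Of the direct partners, P4hb, the beta subunit that the P4ha subunits need, had 4322 ± 149 normalized counts in control and 4651 ± 152 in AKO (SD, n = 3 each). The groups did not overlap, with AKO higher, as for 6.14% of all genes tested. The log2 fold change of P4hb was 0.11 (adjusted p = 0.647 from limma). Crtap (0.04) and Ppib (-0.10), partners in prolyl 3-hydroxylation, were closer to or below 0 on that scale. Loxl4, the remaining lysyl oxidase, had 67.2, 114 and 96.6 in control and 142, 94.7 and 122 in AKO samples, with overlap between the groups. Serpinh1, the collagen chaperone HSP47, had a log2 fold change of 0.10 (standard error 0.13), and the general chaperones Hspa5 and Pdia3 had -0.03 and 0.02.

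The substrates of the enzymes did not separate the groups. Log2 fold changes were 0.21 for Col3a1, 0.19 for Col1a1 and -0.06 for Col4a1, and all 10 collagen chains overlapped between the groups. Of the fibril partners, Sparc had -0.07, Dcn 0.30 and Fn1 0.37, with adjusted p-values from limma of 0.913, 0.549 and 0.736.

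Several of the enzymes, Plod2, P4ha1, P4ha2, Lox and Loxl2 among them, are known as targets of the hypoxia-inducible factors. Of 17 other known targets, 14 were tested, 9 of them with a log2 fold change below 0 (beside 48.1% of all genes tested), and the median was -0.03. limma, edgeR and DESeq2 called none, where over all genes limma and edgeR called 2 each and DESeq2 0.757% lower and 0.241% higher. At a limma p under 0.05 before adjustment 2 of these targets were lower (Vegfa at -0.19 and Egln1 at -0.29), beside 4.69% of all genes tested. The most abundant, Aldoa (0.04), Pfkfb3 (0.02) and Ldha (-0.02), were close to 0 on the log2 scale. Ankrd37, Car9 and Eno1 were below the filter. How the authors counted reads that Eno1 shares with a near-identical copy is not given in the sources used here.

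**Figure D3:**
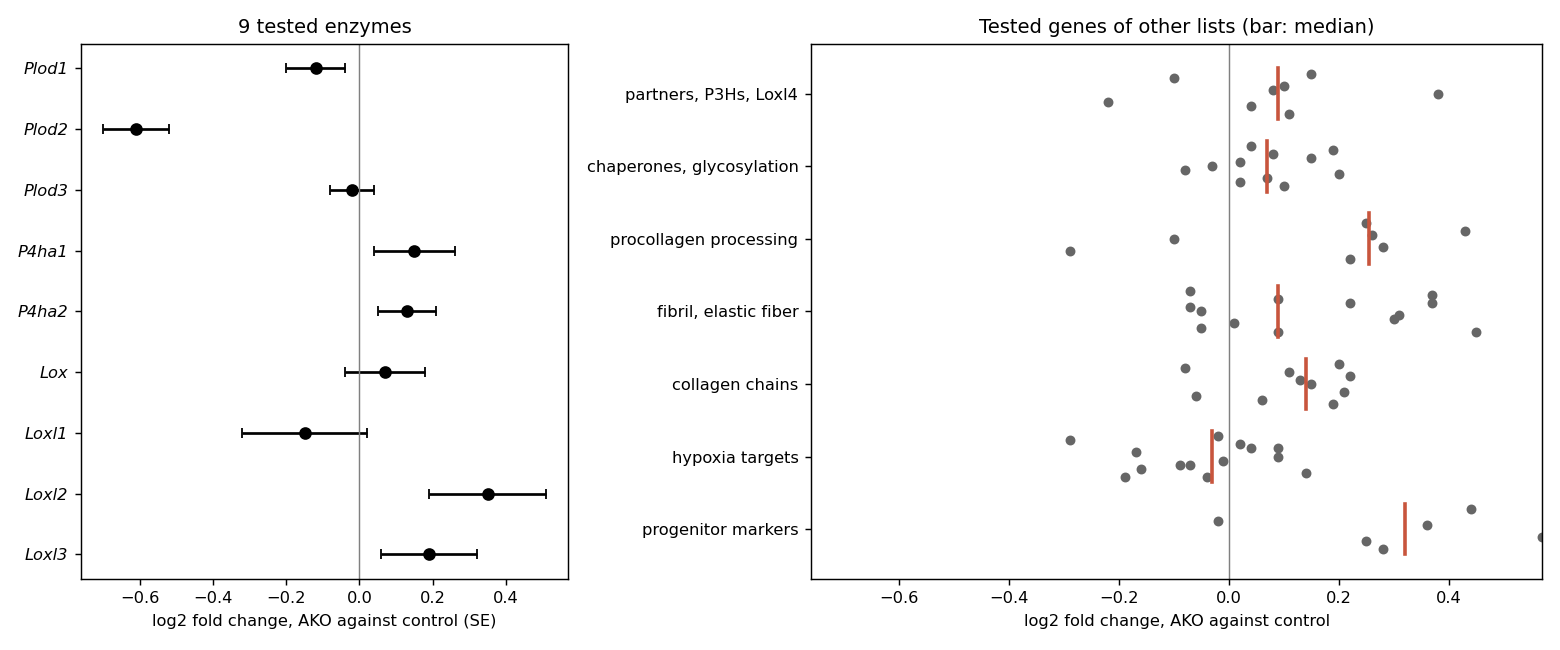
Log2 fold change of AKO against control (horizontal axes), at left for the 9 tested enzymes with standard errors and at right for the tested genes of 7 other lists, with a bar at the median of the list. Both axes have the same range, so that Pcolce2 (0.58) lies just beyond the right end and Dpp4 (0.57), a progenitor marker, at its edge. Plod2 lies at -0.61 and the other 8 enzymes between -0.15 and 0.35, while the list medians lie between -0.03 (hypoxia targets) and 0.32 (progenitor markers).

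Plod2 lies 3.97 Mb from Zfp949, a zinc finger gene that was higher in AKO iWAT (119 ± 14.1 against 301 ± 20.4 normalized counts, SD, n = 3 each, adjusted p = 0.0350 from limma). Within 5 Mb of Plod2, 38 other genes were tested, of which 11 (28.9%) had a limma p under 0.05 before adjustment, 6 lower and 5 higher, beside 9.1% of all genes tested. The window was chosen with the differences in this region known, so that nothing is read from its share. limma called only Zfp949 among them, and DESeq2 called Zfp949 and Pcolce2. limma called 1 gene in this window without control replicate 2 and 0 without any other single sample, and 0 with the replicate number as a block. Pcolce2 lies 3.03 Mb beyond Plod2 on the side away from Zfp949. Near Plod2 itself genes of the table were few, with 3 within 1 Mb. Plscr4, a phospholipid scramblase gene 0.05 Mb away, had 646, 514 and 616 normalized counts in control and 538, 420 and 448 in AKO samples, and the groups overlapped. limma gave it a log2 fold change of -0.34 with a standard error of 0.12 and an adjusted p of 0.498. Plscr1 and Plscr2 had log2 fold changes of 0.12 and 0.03. Around Loxl1, 6 of 91 tested genes within 5 Mb (6.59%), one of them Nrg4, had a limma p under 0.05 before adjustment. In that window limma called 0 genes and DESeq2 called 3 of 114, Nrg4 not among them (adjusted p of 0.0682 from DESeq2). Over all genes DESeq2 called 0.757% lower and 0.241% higher.

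**Figure D4:**
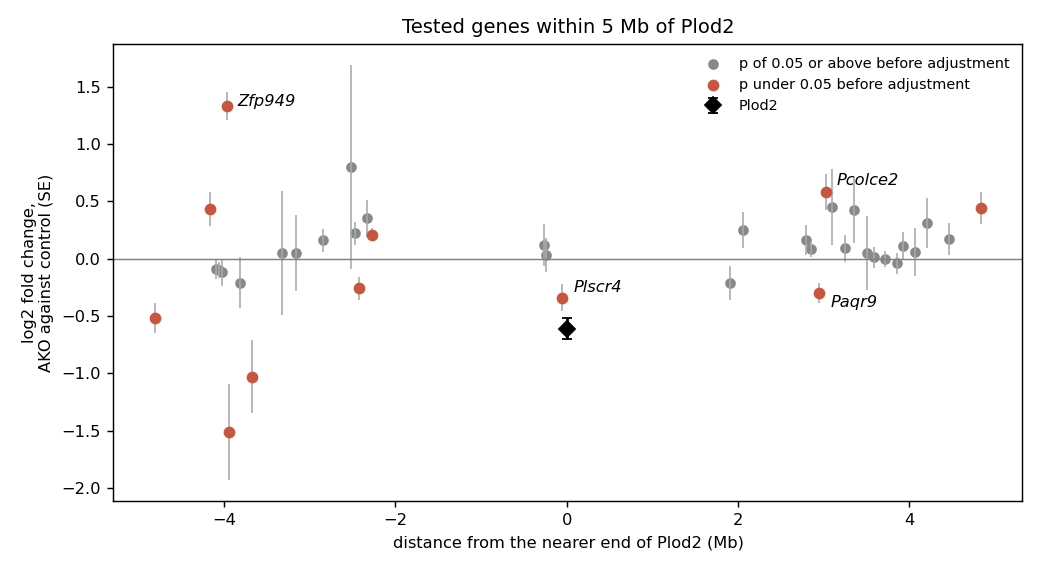
Log2 fold change of AKO against control with its standard error (vertical axis) for the 38 tested genes within 5 Mb of Plod2, by distance from the nearer end of Plod2 in Mb, with Plod2 as a diamond at 0. The 11 colored points have a limma p under 0.05 before adjustment and lie on both sides of 0, from Zfp949 at 1.33 to genes below Plod2.

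The genes whose pattern was most like that of Plod2 were not other collagen enzymes. Over the 6 samples, the 5 highest Pearson correlations with Plod2 on the log2 scale, among 10302 genes with a mean of at least 100, were those of Bpnt1 (0.992), Hmox2 (0.990), Ccdc3 (0.986), the mitochondrial ribosomal RNA mt-Rnr2 (0.984) and Cecr5 (0.984). All 5 were lower in each AKO sample than in each control sample, and 153 genes had a correlation above 0.9. Among the enzymes, the correlation with Plod2 was 0.71 for Plod1, 0.50 for Loxl1, -0.54 for Loxl2, -0.56 for Loxl3 and -0.79 for P4ha2. These values describe 6 samples of 2 groups and largely follow the difference between the groups.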

How the data were processed

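The authors aligned the RNA-Seq reads with STAR to GRCm38, counted them per gene with featureCounts and normalized them with DESeq2. The values the authors deposited are a signal, the read count of a gene over the size factor of its sample. A strand setting is not given in the sources used here. The table also holds the authors' fold changes and p-values, which were not used. Dividing by the step between values gave whole reads for 100% of them (tolerance 0.01), with 17570335 to 18373707 per sample.

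limma (version 3.58.1, R 4.3.3) was run on log2(value + 1) with a variance trend for 13855 genes (mean value 10 or more), with Benjamini-Hochberg adjustment over all of them and a threshold of 0.05. DESeq2 (1.42.0), edgeR (4.0.16) and limma-voom on recovered reads, other pseudocounts (0.1 and 10) and filters, TMM factors, a block and leaving out each sample were alternatives. The tools were tested on simulated data. P-values measure the spread between 3 pools per group.

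Positions and exon lengths come from GENCODE M21 (15894 of 16538 symbols matched, 96.1%), while the authors counted on a later release of the same build. The enzymes and lists were chosen with earlier results of these data known. Named are the 10 enzymes, in each list the called genes and the 3 with the highest mean, genes within 1 Mb of Plod2, called genes within 5 Mb and the 5 genes most like Plod2. Loxl4, Lum, Efemp2, P3h2, Vegfa, Egln1 and genes below the filter were named after their values were seen.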

Additional observations from a re-analysis of the deposited data

How the results depend on the processing

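The log2 fold change of Plod2 stayed between -0.65 and -0.55 in all 16 fits, and its distance from the median of the other tested enzymes did not move by more than its SD between samples. No enzyme moved by more than that SD. Leaving out 1 of the 3 samples of a group cannot move its mean by as much as its SD. The block and the filters do not change a fold change, so nothing is read from this limit for those fits. Without 1 of the samples, Plod3 and Lox changed sign in 2 fits each and Loxl1 in 1. Of the 10 enzymes, 0 were called with limma and 1 (Plod2) with DESeq2, and of the pathway and hypoxia genes 0 with limma and 1 (Pcolce2) with DESeq2. Over all genes, limma called 2, and 6 with at least 10 normalized counts in every sample, limma-voom called 0 and DESeq2 called 149. With each sample left out in turn limma called 0 to 3 genes. Of the genes within 5 Mb of Plod2, limma called 1, DESeq2 2 and limma-voom 0, and with a sample left out 0 to 1. Within 2 Mb, where 4 genes were tested, limma called 0. That window leaves out Zfp949 at 3.97 Mb and Pcolce2 at 3.03 Mb, so that nothing is read from this 0. The cause of these differences was not tested. With the replicate number as a block, limma called 2 genes over all genes and 0 near Plod2. No pairing by number was seen. The deviations of same-numbered samples correlated at 0.135, -0.351 and 0.240, and those of other pairs at -0.5 to 0.335. With 3 samples per group these values cannot decide whether the samples were paired, so the block says nothing of a weaker effect. The level of Plod2 per kb was 80.4 with the exon union and 118 with the longest transcript, which is the shorter length. Depth limits P4ha3, with a few reads per sample.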
